A study of Homo sapiens with 9 samples.

Results

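A line of MDA-MB-231 cells resistant to paclitaxel was compared with sensitive cells of the same line, gene by gene, on Affymetrix HU133A arrays. MDA-MB-231 is an established human breast cancer cell line that grows attached to the dish. The comparison uses 6 of the 9 arrays of the study, chosen by their titles: 3 arrays of cells kept in medium with 1 µM verapamil and 7 nM paclitaxel, and 3 arrays of cells kept in medium with 1 µM verapamil alone. Verapamil, which blocks calcium channels and also the drug pump P-glycoprotein, was thus in the medium of both groups, per the sample descriptions. The other 3 arrays, from a line kept in 1 µM verapamil and 2 nM docetaxel, entered the model as a group of their own, so that the spread is estimated over 9 arrays. In each group the 3 arrays came from 3 separate passages of a single line. P-values thus measure the spread between passages, not between separately selected lines, and selected line and drug in the medium cannot be told apart. The arrays gave a value for 11963 named genes, and calls were made over all of them.

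Paclitaxel is a taxane, a drug that binds the beta-tubulin of microtubules and holds them in the polymer state, so that dividing cells are delayed at the spindle checkpoint. Cells selected to grow in taxanes are known for drug efflux through P-glycoprotein, for changed tubulin isotypes and microtubule-binding proteins, and for changed apoptosis regulators. MDA-MB-231 itself is known as a basal, mesenchymal-like line with strong inflammatory signalling through NF-kB, a transcription factor that drives cytokine genes.

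The labelled cell type was checked against its defining markers. The mesenchymal filament VIM stood at a mean deposited intensity of 8335 in sensitive and 5223 in paclitaxel-resistant cells, and the epithelial keratin KRT18 at 3640.4 and 3154. Of 10 basal and mesenchymal markers of such lines NT5E and EGFR rose (each at least 2-fold) and VIM, MSN and SNAI2 fell, the last with a call that ended without any 1 of 6 arrays (adjusted p of up to 0.148). Of 11 epithelial markers KRT7 and DSP rose and CLDN7 fell. The rises of EGFR and KRT7 depended on the probe set. EGFR turned to -0.16 without probe sets that can match several transcripts, and the call of KRT7 ended with the mean of its probe sets (limma adjusted p = 0.277). The epithelial adhesion gene EPCAM averaged 22.1 and 14.3 and the blood cell marker PTPRC 9.29 and 7.80, below the array medians, while CDH1, another epithelial adhesion gene, lay above them at 83.3 and 62.8. Of 9 blood cell markers 1 rose (LCP1), of 12 fibroblast markers 1 rose (PDGFRB) and 1 fell (COL6A3), of 7 melanocytic markers 1 rose (MITF), and of 7 endothelial markers 1 fell (PECAM1). The median intensity per array lay between 33.7 and 43.9, and 24% to 27% of probe sets per array read under 16. Correlations over genes, which are no replicates of each other, ran from 0.967 to 0.986 (Pearson's r) inside these groups and from 0.905 to 0.948 between them. The 3' minus 5' log2 difference of the GAPDH control, a measure of RNA integrity, was 0.0935 to 0.201 in the paclitaxel-resistant and 0.0145 to 0.0389 in the sensitive arrays, so it moved with the groups, and its part in the results was not tested. The same difference of the beta-actin control was -0.125 to 0.172 and -0.261 to -0.0173, with the groups overlapping. Precision is limited by having 3 arrays per group, and the standard error (SE) of a difference had a median of 0.16 on the log2 scale.

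The groups differed in many genes, with rises and falls in nearly equal number. Because each array averages a culture, fewer cells of a kind and less RNA per cell cannot be told apart. With limma at an adjusted p below 0.05, 2586 of 11963 genes (21.6%) were called, of which 1301 (10.9%) were higher and 1285 (10.7%) lower in the paclitaxel-resistant line. At an unadjusted p below 0.05 there were 3889. Most called differences were small: 1793 of the 2586 were under 2-fold, 485 genes (4.05%) were 2-fold higher or more and 308 (2.57%) 2-fold lower or more, and 8-fold was reached by 5 upward and 21 downward. The groups did not overlap in 4166 genes (34.8%). The median log2 difference was -0.02 over all genes, 0.88 over those called higher and -0.73 over those called lower. Of the 9 arrays, leaving out 1 at a time gave between 1907 and 2713 calls.

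**Figure D1:**
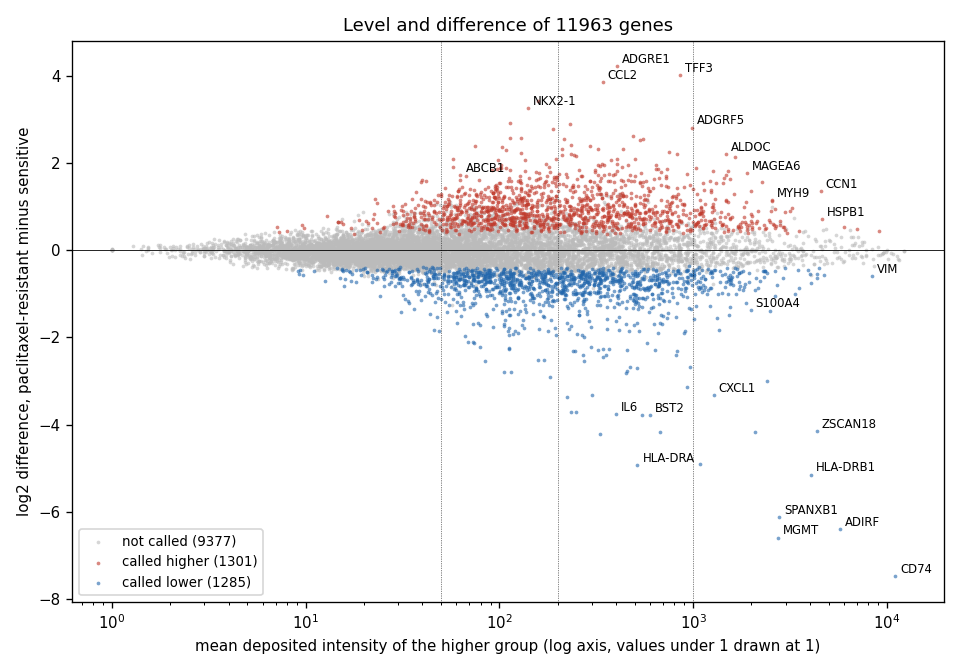
Each point is 1 of 11963 genes, with the mean deposited intensity of the group that had more on the x axis (log axis) and the log2 difference, paclitaxel-resistant minus sensitive, on the y axis; red and blue points were called higher (1301) and lower (1285), and dotted lines mark intensities of 50, 200 and 1000. The decreases reach further than the increases and include genes of very high intensity, with CD74 at the lower right.

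Where on the intensity scale the changes lay was asked next, taking for each gene the mean of the group that had more. Of the 5307 genes under 50 in both groups, 4.96% were called. The share was 29.8% of 3533 genes between 50 and 200, 41.2% of 2454 between 200 and 1000, and 39.0% of 669 at 1000 or more. Differences are of log2(intensity + 16), and the added 16 shrinks them between low values. Among the 669 strongest genes 32 rose and 25 fell at least 2-fold. Genes called lower went from a median intensity of 198.0 to 98.5, and genes called higher from 83.5 to 193.0. In sensitive cells 555 genes stood at 1000 or more and in paclitaxel-resistant cells 558, with 444 in both, of which 99 were called. A further 83 called genes crossed 1000 upward and 79 downward.

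In deposited intensity the largest gain was that of CCN1, a secreted matrix protein that binds integrins. It read 1602, 1833 and 1959 in the sensitive arrays and 3999.8, 5407 and 4254 in the paclitaxel-resistant arrays. All 3 resistant arrays lay above the sensitive ones, and the log2 rise was 1.35 ± 0.16 (± gives the SE throughout, with n = 3 in each group; limma adjusted p = 0.000164). The small heat shock protein HSPB1 read 3006, 2862 and 2836 in the sensitive arrays and 5059, 5019 and 3782 in the paclitaxel-resistant arrays, again without overlap, and rose by 0.71 ± 0.14 (adjusted p = 0.00363). The actin-severing protein DSTN, the heavy chain of non-muscle myosin MYH9 and the sterol pathway enzyme FDPS gained similar amounts, with means going from 1733 to 3159, 1168 to 2563 and 1649.9 to 3242. On the other side, CD74, the invariant chain of class II antigen presentation, was among the strongest genes of sensitive cells. It read 11127, 11993 and 10124 in the sensitive arrays and 45.2, 61.2 and 27.2 in the paclitaxel-resistant arrays, and it fell by 7.48 ± 0.22 (adjusted p = 2.51e-09). ADIRF, a small protein linked to fat cell formation, read 6798, 5087 and 5341 in the sensitive arrays and 48.6, 56 and 45.5 in the paclitaxel-resistant arrays and fell by 6.41 ± 0.16 (adjusted p = 7.89e-10). The zinc finger gene ZSCAN18 went from a mean of 4338 to 205 and G0S2, an inhibitor of fat breakdown, from 2415 to 278. VIM lost more intensity than most genes, from 8335 to 5223, although its log2 difference was a modest fall of 0.60 ± 0.13 (adjusted p = 0.00735). Gains of the ribosomal protein genes RPL23A, RPL38 and RPS6 also ranked here, but ribosomal genes have many near-identical copies, their calls ended with several single arrays left out (adjusted p of up to 0.233, here and below the highest over all alternative settings that ended a call), RPL38 turned to -0.22 with the mean of its probe sets, and RPS6 to -0.03 without probe sets that can match several transcripts.

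Some genes crossed from a clear signal to a level near the bottom of the scale. By the rule of 200 or more on every array of one group and under 50 on every array of the other, 14 genes (0.117% of all) were lost and 5 (0.0418%) were gained in the paclitaxel-resistant line. The lost genes were MGMT, SPANXB1, RGCC, HLA-DRA, NNMT, BST2, CST6, IL6, MFAP2, IFI27, CTSF, FCGRT, HLA-DRB6 and OTUB2, and those gained were TFF3, ADGRE1, CCL2, SSX1 and IGSF3. As the rule uses the intensities themselves, being lost or gained is a description, and the p-values given for any of these genes come from the fit over all genes.

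MGMT, which repairs alkylated guanine in DNA, had the second highest level among the lost genes. It read 2542, 2961 and 2756 in the sensitive arrays and 13.04, 11.4 and 11.8 in the paclitaxel-resistant arrays. SPANXB1, a cancer-testis antigen of the X chromosome with close copies that probes may share, read 3709.8, 1873 and 2756 in the sensitive arrays and 16.2, 24.9 and 25.4 in the paclitaxel-resistant arrays. RGCC, a regulator of the cell cycle, went from a mean of 1087 to 20.7. NNMT, which methylates nicotinamide, went from 675 to 24.1 and its other probe set fell too. CST6, a secreted cystatin that inhibits cysteine proteases, went from 544 to 25.3, and CTSF, a lysosomal cysteine protease of the cathepsin family, from 224 to 7.70. MFAP2, a component of elastic microfibrils, went from 332 to 3.18, and FCGRT, the receptor that recycles IgG and albumin, from 236 to 4.82. OTUB2, a deubiquitinase, lay close to the limits on both sides, at 310.3, 201 and 222 in the sensitive arrays and 49.8, 28 and 39.04 in the paclitaxel-resistant arrays. HLA-DRB6 is a pseudogene with close relatives among the class II genes, and its other probe set was not called (adjusted p = 0.994).

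Among the gained genes TFF3, a secreted trefoil peptide of mucus-forming epithelia, reached the highest level. It read 26.99, 39.3 and 39.4 in the sensitive arrays and 1031, 717 and 811 in the paclitaxel-resistant arrays. ADGRE1, an adhesion receptor known from macrophages as F4/80, read 3.14, 13.3 and 4.52 in the sensitive arrays and 422, 412 and 373 in the paclitaxel-resistant arrays, and the monocyte-attracting chemokine CCL2 read 3.76, 14.2 and 9.02 in the sensitive arrays and 392.3, 343 and 287 in the paclitaxel-resistant arrays. The cancer-testis gene SSX1 went from a mean of 30.8 to 234, and the immunoglobulin superfamily gene IGSF3 lay just inside the limit, at 19.5, 14.2 and 17.9 in the sensitive arrays and 273, 219.7 and 201 in the paclitaxel-resistant arrays. NKX2-1, a transcription factor of lung and thyroid, missed the rule, as it read 0.04, 0.02 and 0.01 in the sensitive arrays and 197.6, 109.4 and 113.4 in the paclitaxel-resistant arrays. Its second probe set stood at 0.25 and was not called.

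**Figure D2:**
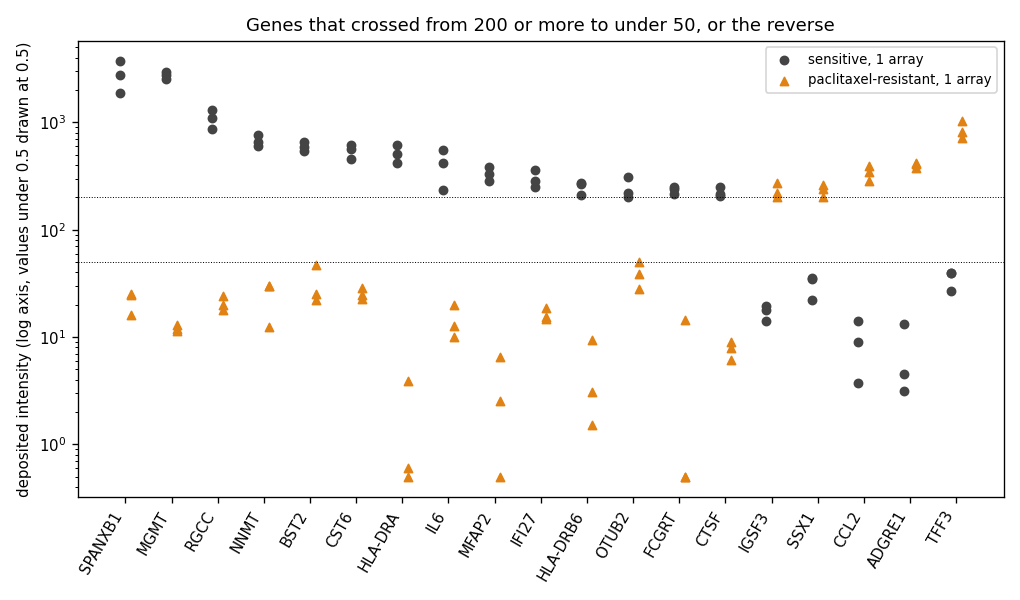
Deposited intensity (log axis, values under 0.5 drawn at 0.5) of the 14 lost and 5 gained genes; each dark circle is 1 sensitive and each orange triangle 1 paclitaxel-resistant array, and dotted lines mark 200 and 50. MGMT falls from 2542 or more to 13.04 or less, and TFF3 rises from 39.4 or less to 717 or more.

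Lost genes did not share one kind of promoter, and the pair below shows the range. Both sequences are 250 bases before to 50 after the start site (RefSeq, GRCh38.p14), 5′ to 3′ on the strand of the gene, with CpG pairs in capitals. MGMT lies on the plus strand of chromosome 10 at chr10:129466991-129467290 and BST2 on the minus strand of chromosome 19 at chr19:17405581-17405880.
MGMT: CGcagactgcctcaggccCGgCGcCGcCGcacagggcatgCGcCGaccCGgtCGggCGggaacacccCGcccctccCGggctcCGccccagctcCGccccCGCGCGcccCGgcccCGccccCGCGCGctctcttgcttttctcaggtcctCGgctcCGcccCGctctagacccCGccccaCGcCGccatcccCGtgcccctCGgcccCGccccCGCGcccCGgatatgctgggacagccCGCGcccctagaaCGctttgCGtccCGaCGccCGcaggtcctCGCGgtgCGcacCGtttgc
BST2: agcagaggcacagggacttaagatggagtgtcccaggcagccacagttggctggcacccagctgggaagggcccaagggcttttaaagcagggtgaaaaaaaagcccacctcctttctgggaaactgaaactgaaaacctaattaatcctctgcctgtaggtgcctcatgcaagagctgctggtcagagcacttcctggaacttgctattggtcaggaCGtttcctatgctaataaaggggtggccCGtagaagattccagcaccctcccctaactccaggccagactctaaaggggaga
The MGMT window holds 45 CpG pairs at 78.7% GC and that of BST2 2 at 52.7%. Promoter windows were found for 10 of the 14 lost genes, with a median of 8 CpG pairs and a range of 2 to 45, where the median over all 9563 measured genes with a window was 24. Few CpG pairs were not particular to lost genes. The gained genes had 2 windows, with a median of 4.5, and genes at least 8-fold higher had 3, with a median of 4. Of genes called lower 1083 had a window, with a median of 27, and of those called higher 1080, with a median of 27 too. DNA methylation was not measured here.

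The functions were then followed through 56 gene lists that hold 1766 of the measured genes. In 27 lists more members were higher than lower, in 23 more were lower, and 6 were even. The shares below read against the 21.6% called over all genes. That share itself depends on level, from 4.96% of genes under 50 to 41.2% of those between 200 and 1000. A list of strong genes can thus exceed 21.6%, and a list of weak genes fall short of it, through level alone. Lists were not matched for level.

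**Figure D3:**
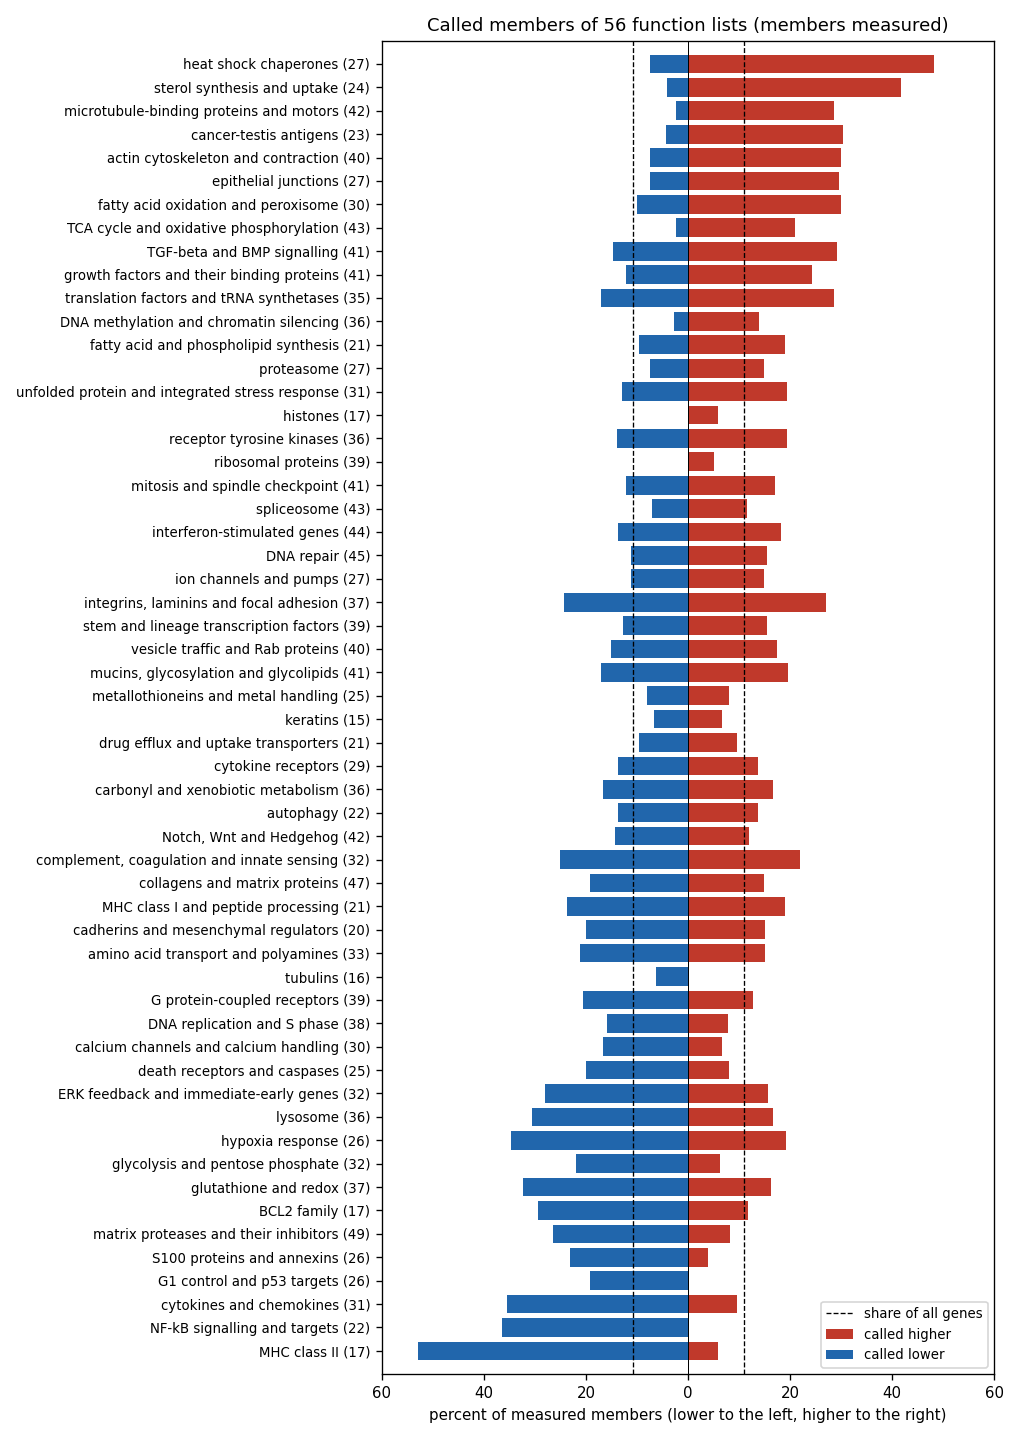
Percent of the measured members of 56 function lists (number measured in brackets) that were called higher (red, to the right) or lower (blue, to the left), sorted by the difference of the shares; dashed lines mark the shares over all genes, 10.9% higher and 10.7% lower. Heat shock chaperones and sterol synthesis reach furthest to the right, and MHC class II, NF-kB and cytokines furthest to the left.

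Most called genes of MHC class II were lower. Of the MHC class II genes, which present peptides to helper T cells, 1 of 17 measured members rose, 9 fell and 7 were not called, with a median difference of -0.81 against -0.02 over all genes. HLA-DRA, the alpha chain of HLA-DR, read 622, 504 and 422 in the sensitive arrays and 0.600, 3.87 and 0.0200 in the paclitaxel-resistant arrays, and its groups did not overlap. It fell by 4.94 ± 0.17 (adjusted p = 1.16e-08), a size set by the added 16 (a difference of -3.16 with 64 and -8.04 with 1 added), and the peptide-loading chain HLA-DMA fell from a mean of 369 to 67.9. The beta chain HLA-DRB1 stood at 4055 in sensitive cells and 95.2 in resistant cells. CIITA, the coactivator that switches class II genes on, was near the array median in both groups (33.3 to 44.7, log2 difference 0.21, interval -0.09 to 0.52) and did not pass the test. RFXANK, a subunit of the factor that binds class II promoters, fell by 0.95 ± 0.18 (adjusted p = 0.00361). The riser was RFX5 of the same factor, and its call ended with several single arrays left out (adjusted p of up to 0.127).

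Class I genes were called in both directions. Of this list 4 of 21 measured members rose, 5 fell and 12 were not called. The peptide-binding chain HLA-G fell by 0.70 ± 0.17 (adjusted p = 0.0121) and HLA-B fell by 0.64 ± 0.16, while B2M, the shared light chain, stood at 3548 and 3392 and did not pass. Class I heavy chains are so alike that their probes may read each other. The endoplasmic reticulum chaperone CANX rose by 1.37 ± 0.19 (adjusted p = 0.00042) and the stress ligands MICA and ULBP2, which natural killer cells recognise, by 0.85 ± 0.18 and 0.96 ± 0.14. Leaving out sensitive replicate 2 or paclitaxel-resistant replicate 3 gave 2 falls, and the call of HLA-B ended in both cases.

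Interferon-stimulated genes split. Of 44 measured, 8 rose and 6 fell. BST2, which tethers budding viruses to the membrane, read 655, 592 and 547 in the sensitive arrays and 46.98, 25.2 and 21.99 in the paclitaxel-resistant arrays and fell by 3.78 ± 0.20 (adjusted p = 4.33e-07). IFI27 went from a mean of 299.6 to 16.3 and IFITM1, a membrane barrier to virus entry, from 449.8 to 54.7. The risers were EIF2AK2, the kinase PKR that halts translation on double-stranded RNA (up by 1.60 ± 0.22, adjusted p = 0.000471), the guanylate-binding proteins GBP1 and GBP2, USP18, ISG15, MX2, SP110 and ADAR. ISG15, a ubiquitin-like modifier, was the strongest of them, with means of 701 to 1145. The call of ADAR was lost when sensitive replicate 2 or paclitaxel-resistant replicate 1 was dropped (adjusted p of up to 0.0719).

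Of the cytokines and chemokines 3 of 31 measured members rose, 11 fell and 17 were not called, with a median of -0.14. The inflammatory cytokine IL6 read 233, 549 and 421 in the sensitive arrays and 19.8, 12.7 and 10.1 in the paclitaxel-resistant arrays. The neutrophil-attracting chemokine CXCL1 read 766, 1651 and 1420.2 in the sensitive arrays and 89.3, 106 and 119.8 in the paclitaxel-resistant arrays, and its relative CXCL2 108, 221 and 220.0 in the sensitive arrays and 13.01, 6.48 and 13.9 in the paclitaxel-resistant arrays. In each of the 3 the sensitive arrays all lay above the resistant ones, with sensitive replicate 1 the lowest of its group. IL6 fell by 3.77 ± 0.29, CXCL1 fell by 3.33 ± 0.29 and CXCL2 fell by 2.90 ± 0.26 (adjusted p = 9.51e-06, 2.02e-05 and 2.07e-05). CXCL1, CXCL2 and CXCL3 are near-copies of each other, so part of their signal may be shared. The macrophage growth factor CSF1 went from a mean of 882 to 411. Against this direction CCL2 rose by 3.85 ± 0.27, LIF, a cytokine of the IL6 family, by 1.25 ± 0.18 and the inflammasome product IL18 by 0.73 ± 0.16 (adjusted p = 4.31e-06, 0.000693 and 0.00593). CXCL8 fell by 1.46 ± 0.35, but its call ended without paclitaxel-resistant replicate 2 (adjusted p = 0.0559).

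The called members of the NF-kB list were all lower. Of the list 0 of 22 measured members rose, 8 fell and 14 were not called, with a median of -0.44. The leukocyte adhesion molecule ICAM1 fell by 1.76 ± 0.19 (adjusted p = 8.47e-05), the soluble pattern receptor PTX3 fell by 1.91 ± 0.23 (adjusted p = 0.000187) and the inhibitor NFKBIE by 1.12 ± 0.15 (adjusted p = 0.000365). The subunits NFKB1 (log2 difference -0.25), RELA (-0.41) and RELB (-0.55, adjusted p = 0.0814) and the inhibitor NFKBIA (-0.26) did not pass. The adaptor PYCARD, which assembles inflammasomes, fell from a mean of 74.3 to 5.58, and the receptor TNFRSF1B from 72.9 to 6.05. They were named from lists called in both directions. In complement, coagulation and innate sensing, with PYCARD, 7 of 32 measured members rose and 8 fell. Of the cytokine receptors, with TNFRSF1B, 4 of 29 rose and 4 fell. Without sensitive replicate 2 these falls numbered 5 and 1. The interleukin receptor IL7R rose from 0.240 to 158, a gain of 3.43 ± 0.17 (adjusted p = 2.37e-07) whose size is set by the added 16 (1.80 with 64 and 7.02 with 1 added).

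A sequence that NF-kB is known to bind was looked for in the promoters of the fallen cytokines. The motif searched was GGG, any 2 bases and TTTCC, on either strand, and it was found in 6 of 10 fallen cytokines with a window (CXCL1, CXCL2, CXCL3, IL6, IL32 and LTB), in 9 of 23 of the whole list, and in 2.10% of all 9563 windows. As CXCL1, CXCL2 and CXCL3 are near-copies, their matches do not count as separate cases. The windows of CXCL1 (plus strand, chr4:73869143-73869442), CXCL2 (minus strand, chr4:74099146-74099445) and IL6 (plus strand, chr7:22726950-22727249) are given 5′ to 3′ with motif matches in capitals.
CXCL1: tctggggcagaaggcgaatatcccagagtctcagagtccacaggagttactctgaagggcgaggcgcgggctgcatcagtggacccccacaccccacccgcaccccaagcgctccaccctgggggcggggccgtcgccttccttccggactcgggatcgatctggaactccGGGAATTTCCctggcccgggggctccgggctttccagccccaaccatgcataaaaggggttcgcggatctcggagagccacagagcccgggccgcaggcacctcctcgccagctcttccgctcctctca
CXCL2: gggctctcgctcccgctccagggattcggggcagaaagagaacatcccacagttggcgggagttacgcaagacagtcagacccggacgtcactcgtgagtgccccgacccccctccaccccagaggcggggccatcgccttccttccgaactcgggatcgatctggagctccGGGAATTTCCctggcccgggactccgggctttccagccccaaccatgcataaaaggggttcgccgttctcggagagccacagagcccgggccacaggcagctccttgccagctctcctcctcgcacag
IL6: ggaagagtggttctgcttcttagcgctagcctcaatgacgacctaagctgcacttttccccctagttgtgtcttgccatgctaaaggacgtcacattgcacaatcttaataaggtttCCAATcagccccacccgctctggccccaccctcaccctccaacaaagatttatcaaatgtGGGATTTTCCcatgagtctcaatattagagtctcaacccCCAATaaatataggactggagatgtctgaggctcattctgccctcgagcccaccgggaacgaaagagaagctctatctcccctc
The match begins 79, 78 and 73 bases before the start site, on the gene's own strand. The other capitals in IL6 are CCAAT, a second motif searched, and they do not overlap the first. CXCL1 and CXCL2 hold the same letters there, GGGAATTTCC, and IL6 holds GGGATTTTCC. A match describes the letters and is not a site of binding.

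Called sterol genes were higher with 1 exception. Of the enzymes and regulators of sterol synthesis and uptake 10 of 24 measured members rose, 1 fell and 13 were not called, with a median of 0.45. HMGCS1, which makes the precursor of mevalonate, read 25.4, 6.66 and 23.7 in the sensitive arrays and 210.0, 124 and 72.5 in the paclitaxel-resistant arrays. MSMO1, a sterol demethylase, read 615, 149 and 416 in the sensitive arrays and 2154, 1670.3 and 1134 in the paclitaxel-resistant arrays. FDPS, which builds farnesyl diphosphate, read 1907, 1657 and 1385 in the sensitive arrays and 3933, 3471 and 2322 in the paclitaxel-resistant arrays. In all 3 the resistant arrays lay above the sensitive ones, with resistant replicate 1 the highest and replicate 3 the lowest. They rose by 2.06 ± 0.30, 2.14 ± 0.32 and 0.98 ± 0.19 (adjusted p = 0.0007, 0.0008 and 0.0037). SREBF2, the transcription factor that drives the pathway, rose by 0.92 ± 0.13 (adjusted p = 0.000675), as did HSD17B7 and ACAT2 by 1.19 ± 0.12 and 1.45 ± 0.20. The exception was NPC2, which carries cholesterol out of lysosomes and fell by 0.49 ± 0.14, a call that ended with several single arrays left out (adjusted p of up to 0.104), while 2 falls were counted without docetaxel-resistant replicate 3. SQLE, a rate-setting enzyme further down (0.22, interval -0.20 to 0.65), and the sensor INSIG1 (0.50, adjusted p = 0.0924) did not pass. For MVD, DHCR7 and TM7SF2 the call depended on single arrays (adjusted p of up to 0.167).

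Promoters of these genes carried CCAAT often. It stood on either strand in 16 of 22 windows of the list and in 9 of 9 of the called risers with a window, against 37.3% of all 9563 windows. It was not particular to rising genes. MHC class II, whose called genes mostly fell, had it in 10 of 13 windows and in 4 of 6 of its fallen genes. Cytokines had it in 12 of 23, interferon-stimulated genes in 13 of 34 and heat shock chaperones in 5 of 24. TCACNCCAC, a form of the sterol element, was found in 1 of the 22, SREBF2, and in 1.05% of all. The windows of HMGCS1 (minus strand, chr5:43313363-43313662), MSMO1 (plus strand, chr4:165327419-165327718) and FDPS (plus strand, chr1:155308616-155308915) are given 5′ to 3′, with CCAAT or its complement ATTGG in capitals.
HMGCS1: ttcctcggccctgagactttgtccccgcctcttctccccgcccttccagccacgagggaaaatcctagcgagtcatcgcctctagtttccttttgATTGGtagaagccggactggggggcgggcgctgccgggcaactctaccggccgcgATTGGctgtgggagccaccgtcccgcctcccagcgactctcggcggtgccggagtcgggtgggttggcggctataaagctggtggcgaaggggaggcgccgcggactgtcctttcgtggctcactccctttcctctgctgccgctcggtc
MSMO1: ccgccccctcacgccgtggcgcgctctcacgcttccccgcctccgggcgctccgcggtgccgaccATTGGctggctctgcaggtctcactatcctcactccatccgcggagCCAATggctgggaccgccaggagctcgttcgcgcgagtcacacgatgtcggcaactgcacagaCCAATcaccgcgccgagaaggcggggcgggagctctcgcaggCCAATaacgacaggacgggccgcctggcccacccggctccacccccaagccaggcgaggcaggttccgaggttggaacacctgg
FDPS: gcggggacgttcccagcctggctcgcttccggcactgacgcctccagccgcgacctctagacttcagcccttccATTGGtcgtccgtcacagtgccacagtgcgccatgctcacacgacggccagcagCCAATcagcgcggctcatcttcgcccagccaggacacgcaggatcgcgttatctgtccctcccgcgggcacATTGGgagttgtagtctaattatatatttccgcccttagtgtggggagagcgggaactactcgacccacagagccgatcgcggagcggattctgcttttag
HMGCS1 has 2 matches, MSMO1 4 and FDPS 3, and none overlap another motif searched.

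Of the list of fatty acid and phospholipid synthesis 4 of 21 measured members rose, 2 fell and 15 were not called, with a median of -0.02. FASN, the fatty acid synthase, rose from a mean of 209 to 728 (by 1.71 ± 0.23, adjusted p = 0.000437) and ACACA, which supplies its substrate, from 126 to 424 (by 1.60 ± 0.14, adjusted p = 2.07e-05). The weaker probe set of FASN, at a mean of 33.8 in sensitive cells, stood at -0.04, and the weaker one of ACACA fell by 0.70. The falls were in PTDSS1, a phosphatidylserine synthase (0.48 ± 0.12, adjusted p = 0.0158), and ACSL5, which activates fatty acids (0.76 ± 0.20, adjusted p = 0.0185), whose call ended without paclitaxel-resistant replicate 2 or 3, leaving 1 fall. Of the list of fatty acid oxidation and peroxisomes 9 of 30 measured members rose, 3 fell and 18 were not called, with a median of 0.23. Among the risers were HSD17B4 of peroxisomal beta-oxidation (1.74 ± 0.20, adjusted p = 0.000115), the mitochondrial dehydrogenases ACADM (1.34 ± 0.30) and ACADVL (0.91 ± 0.19) and the peroxide-splitting enzyme CAT (1.06 ± 0.22). CROT, a peroxisomal carnitine transferase, rose by 0.99 ± 0.18 (adjusted p = 0.00236). ECHS1, a hydratase of mitochondrial beta-oxidation, fell by 0.78 ± 0.13 (adjusted p = 0.00126). The other falls, HADH and ACOX3, lost their calls without any 1 of sensitive replicate 2, paclitaxel-resistant replicate 1 and paclitaxel-resistant replicate 3.

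Glycolysis stood at high levels and fell in part. Of this list 2 of 32 measured members rose, 7 fell and 23 were not called. FBP1, the reverse enzyme of gluconeogenesis, fell by 1.80 ± 0.13 (adjusted p = 7e-06), PFKFB3, which sets the flux through phosphofructokinase, by 1.23 ± 0.14 (adjusted p = 0.000164) and PGLS of the pentose phosphate pathway by 1.36 ± 0.19 (adjusted p = 0.000578). The glucose transporter SLC2A3 went from 118 to 60.7 and hexokinase HK1 from 969 to 660.3. LDHA (5372 and 5209) and ENO1 (6372 and 5690.5), both far above 1000, did not pass. ALDOC, an aldolase isoform, rose by 2.20 ± 0.21 (adjusted p = 3.07e-05), from 306 to 1473. The second riser, LDHB, lost its call with any 1 of 7 arrays left out (adjusted p of up to 0.165).

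In the hypoxia list 5 of 26 measured members rose, 9 fell and 12 were not called. The stress gene NDRG1 went from 2491 to 927, DDIT4, an inhibitor of mTOR, from 1538 to 518, and the angiogenic factor VEGFA from 1182 to 590.0. They fell by 1.38 ± 0.15, 1.49 ± 0.21 and 0.99 ± 0.17 (adjusted p = 9.83e-05, 0.000536 and 0.00201). EPAS1, the oxygen-sensitive factor HIF-2 alpha, fell by 0.77 ± 0.18 (adjusted p = 0.00937), and HIF1A (0.45, interval -0.27 to 1.18) did not pass. The risers included ANGPTL4, a secreted lipase inhibitor (1.51 ± 0.13, adjusted p = 2e-05), the collagen-modifying enzyme PLOD2 (1.11 ± 0.19) and the histone demethylase KDM3A (1.16 ± 0.25). Of the respiratory chain and citrate cycle 9 of 43 measured members rose, 1 fell and 33 were not called, at median intensities of 945 and 1120.0. NDUFV2 of complex I rose by 1.33 ± 0.19 (adjusted p = 0.000494) and UQCRC1 of complex III, one of the strongest, from 1791 to 2802. The fall, that of NDUFB8, ended without paclitaxel-resistant replicate 3 (adjusted p = 0.0567), 2 falls were counted without sensitive replicate 1 or 2, and with arrays shifted to a common median in place of quantile normalization 5 rises and 3 falls were counted.

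Chaperones made up the list with the largest share of rises. Of the heat shock chaperones 13 of 27 measured members rose, 2 fell and 12 were not called, with a median of 0.48. HSPD1, the mitochondrial chaperonin, read 900.3, 468 and 633 in the sensitive arrays and 1652, 1672 and 1532 in the paclitaxel-resistant arrays. It rose by 1.28 ± 0.21 (adjusted p = 0.0015) and the groups did not overlap, although sensitive replicate 2 was lowest. HSPA4 and HSPH1, nucleotide exchange factors of HSP70, rose by 1.90 ± 0.32 and 1.58 ± 0.32 (adjusted p = 0.00153 and 0.00439), and its partner DNAJA1 by 1.54 ± 0.31 (adjusted p = 0.00422). HSPA9, the HSP70 of mitochondria, rose by 0.84 ± 0.19 (adjusted p = 0.00815). HSP90AA1 went from 803 to 2269.5 but lost its call without any 1 of sensitive replicates 2 and 3 and paclitaxel-resistant replicates 1 and 2 (adjusted p of up to 0.101). HSP90AB1 (3224 and 3094) and HSPA5 (2153 and 2182), both strong, did not pass. The count of rises was 8 without paclitaxel-resistant replicate 1. The falls, DNAJB1 and DNAJB6, numbered 1 with any 1 of 7 arrays left out. Of the unfolded protein and integrated stress response 6 of 31 measured members rose, 4 fell and 21 were not called. Its sensor kinase EIF2AK3 rose from a low level (10.9 to 46.04), and the chaperone HSP90B1 by 1.68 ± 0.22 (adjusted p = 0.000372), with its other probe set, lower in level, at 0.09. The falls of DDIT3, CEBPB and SLC3A2 lost their calls with 1 of several arrays left out, and that of SDF2L1 (0.73 ± 0.16) did not. The count of falls was 2 without sensitive replicate 2 or paclitaxel-resistant replicate 2, and 1 without sensitive replicate 3 or paclitaxel-resistant replicate 3.

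**Figure D4:**
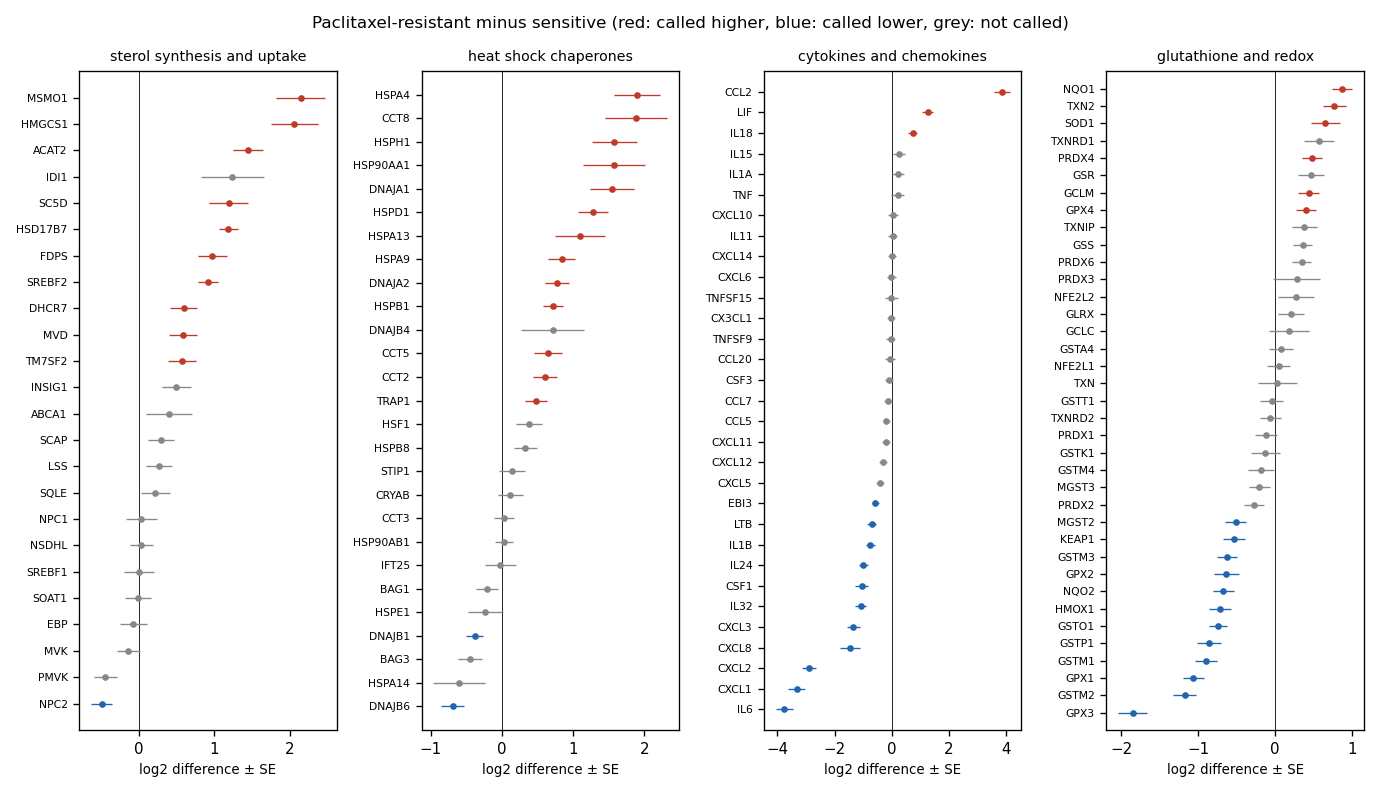
Log2 difference, paclitaxel-resistant minus sensitive, with its SE (bars) for every measured member of 4 lists; red members were called higher, blue lower and grey were not called, from 9 arrays in 1 limma fit. Sterol and chaperone members lie mostly right of 0, cytokines fall at one end except CCL2, LIF and IL18, and glutathione and redox members split.

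Among the genes of protein synthesis, calls lay mostly in the enzymes and factors. Of 39 ribosomal proteins, whose median intensity was 5770.0 in sensitive and 5830.0 in resistant cells, 2 rose (5.13%). This count was 6 without sensitive replicate 1 and 1 without any 1 of sensitive replicates 2 and 3 and paclitaxel-resistant replicates 2 and 3. Of the translation factors and tRNA synthetases 10 of 35 measured members rose, 6 fell and 19 were not called. NARS1, which charges asparagine, read 96.5, 56.3 and 76.1 in the sensitive arrays and 572, 354 and 285 in the paclitaxel-resistant arrays and rose by 2.10 ± 0.26 (adjusted p = 0.000245). EPRS1 and LARS1, for glutamate with proline and for leucine, rose by 1.66 ± 0.31 and 1.53 ± 0.19. WARS1, the tryptophan enzyme, fell by 1.67 ± 0.13 (adjusted p = 1.08e-05). The elongation factor EEF2 read 2977, 3168 and 3888 in the sensitive arrays and 1473, 1562 and 1685 in the paclitaxel-resistant arrays and fell by 1.00 ± 0.15 (adjusted p = 0.000723), and its other probe set fell by 1.35. EIF2S2, a subunit of the factor that brings the first tRNA, rose by 1.40 ± 0.24 (adjusted p = 0.00171). The count of falls was 3 without sensitive replicate 2. In the proteasome 4 of 27 rose and 2 fell, with PSMD2 down by 0.88 ± 0.13 (adjusted p = 0.000585) and PSMD12 up by 1.21 ± 0.18 (adjusted p = 0.000651), and the count of rises was 2 without paclitaxel-resistant replicate 2 and 8 when sensitive replicate 1 was dropped, while 4 falls were counted without sensitive replicate 3.

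Several enzymes of glutathione metabolism were lower. Of the glutathione and redox list 6 of 37 measured members rose, 12 fell and 19 were not called. GPX1, which reduces peroxides with glutathione, read 2544, 2426 and 2984 in the sensitive arrays and 1179, 1194 and 1304 in the paclitaxel-resistant arrays and fell by 1.06 ± 0.14 (adjusted p = 0.000301). GPX3, its secreted relative, read 873, 857 and 989 in the sensitive arrays and 197, 239.8 and 288 in the paclitaxel-resistant arrays and fell by 1.85 ± 0.19 (adjusted p = 5.2e-05). The groups overlapped in neither. The transferases that join glutathione to drugs followed, with means going from 442 to 231 in GSTM1, 455 to 192 in GSTM2, 1007 to 647 in GSTM3, 911 to 495 in GSTP1 and 4055 to 2225 in GSTO1. GSTM genes resemble each other closely, so their probes may share signal. HMOX1, which degrades heme, fell by 0.71 ± 0.15 (adjusted p = 0.00482), while NQO1, a quinone reductase that NFE2L2 drives like HMOX1, rose by 0.87 ± 0.13 (adjusted p = 0.000782). NFE2L2 itself stood at 0.28 (interval -0.23 to 0.79) and did not pass. Besides NQO1 and TXN2 (0.77 ± 0.15) the risers PRDX4, SOD1, GCLM and GPX4 lost their calls with 1 of several arrays left out, and the count of rises fell to 2 or 3 without any 1 of sensitive replicates 2 and 3 and the 3 paclitaxel-resistant arrays.

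Among other detoxifying genes the ketosteroid reductases AKR1C2 and AKR1C3 fell by 1.17 ± 0.19 and 1.52 ± 0.26 (adjusted p = 0.00117 and 0.00161), and the epoxide hydrolase EPHX1 by 0.92 ± 0.18 (adjusted p = 0.00344). ALDH7A1, an aldehyde dehydrogenase, rose by 1.02 ± 0.18 (adjusted p = 0.00185). In the list of carbonyl and xenobiotic metabolism 6 of 36 measured members rose, 6 fell and 24 were not called, and 2 rises were counted without paclitaxel-resistant replicate 1. Of the lysosomal genes 6 of 36 measured members rose, 11 fell and 19 were not called. The membrane protein LAMP1 went from 2094 to 1099.8, with its 3 other probe sets also lower, and the proteases CTSC and CTSD from 498 to 228 and 552 to 298. They fell by 0.92 ± 0.15, 1.03 ± 0.18 and 0.86 ± 0.17 (adjusted p = 0.00141, 0.00185 and 0.00419). GUSB and GAA, which cleave glucuronides and glycogen, rose by 0.73 ± 0.15 and 0.90 ± 0.17. Without sensitive replicate 2, 7 lysosomal falls were counted.

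Matrix and adhesion genes were among the called genes in both directions. Among matrix proteases and protease inhibitors 4 of 49 measured members rose, 13 fell and 32 were not called. The plasminogen activators PLAU and PLAT went from 1336 to 444 and 1363 to 371, the membrane protease MMP14 from 665 to 276, and the inhibitors TIMP3 and TIMP1 from 475 to 63.8 and 3501 to 1794. TIMP3 read 569, 372 and 482 in the sensitive arrays and 80.6, 46.6 and 64.3 in the paclitaxel-resistant arrays, and it fell by 2.67 ± 0.15 (adjusted p = 6.55e-07) with its 3 other probe sets falling too. PRSS3, a trypsin, rose by 1.47 ± 0.19 (adjusted p = 0.000346) and the sheddase ADAM17 by 1.53 ± 0.22 (adjusted p = 0.00062). The count of rises was 2 without paclitaxel-resistant replicate 1. Of the collagens and matrix proteins 7 of 47 rose and 9 fell, with the anti-adhesive TNC going from 86.6 to 22.1 (adjusted p = 6.1e-05) and SPARC, a collagen-binding protein, up by 1.90 ± 0.14 (adjusted p = 6.55e-06).

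Integrins, laminins and focal adhesion genes were called in 51.4% of cases: 10 of 37 measured members rose, 9 fell and 18 were not called. The laminin chain LAMC1 rose by 1.14 ± 0.12 (adjusted p = 8.17e-05), the focal adhesion kinase PTK2 by 1.25 ± 0.19 (adjusted p = 0.00087) and the adhesion molecule MCAM by 1.14 ± 0.18 (adjusted p = 0.00117). L1CAM, an adhesion molecule of neurons and tumours, fell by 1.78 ± 0.19 (adjusted p = 6.28e-05), the tetraspanin CD82 by 1.49 ± 0.15 (adjusted p = 4.38e-05), the integrin-linked kinase ILK by 0.74 ± 0.16 and the scaffold PXN by 0.73 ± 0.14. Among the epithelial junction genes 8 of 27 measured members rose, 2 fell and 17 were not called. The desmosome proteins DSP, PKP2 and PKP3 rose from low levels, with means going from 22 to 96.6, 37.8 to 90.2 and 61.7 to 157, while PPL, which links desmosomes to filaments, and CLDN7, a tight junction claudin, fell by 2.53 ± 0.17 and 1.23 ± 0.19 (adjusted p = 2.8e-06 and 0.000947). CDH1 was not called (-0.44, interval -1.04 to 0.16). CDH3 and CDH11, cadherins of basal epithelium and mesenchyme, rose by 1.70 ± 0.25 and 1.95 ± 0.24 (adjusted p = 0.0007 and 0.000197). S100A4, a calcium-binding protein of motile cells, fell by 1.37 ± 0.15 (adjusted p = 9.02e-05) and TGM2, which cross-links matrix proteins, fell by 2.68 ± 0.21 (adjusted p = 9.51e-06).

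Actin and contraction genes mostly rose where they changed. Of this list 12 of 40 measured members rose, 3 fell and 25 were not called. MYH9 read 1079, 1113 and 1311 in the sensitive arrays and 2202, 2680.3 and 2806 in the paclitaxel-resistant arrays. The groups stood apart, and MYH9 rose by 1.15 ± 0.17 (adjusted p = 0.000693). MYLK, the kinase that activates myosin, rose by 1.38 ± 0.23 (adjusted p = 0.00138) and the second non-muscle myosin MYH10 by 1.14 ± 0.21 (adjusted p = 0.00247). TAGLN2, an actin-binding protein, rose from 1359 to 2518. GSN, which severs actin, fell by 1.01 ± 0.17 (adjusted p = 0.00153) and MSN, which ties actin to the membrane, by 0.73 ± 0.13 (adjusted p = 0.00197). TPM1 rose by 1.16 ± 0.17, but 1 of its other probe sets stood at -0.26.

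Some receptors and secreted factors were higher and others lower. Among receptor tyrosine kinases 7 of 36 measured members rose, 5 fell and 24 were not called. MET, the receptor of hepatocyte growth factor, read 131, 38.5 and 57.9 in the sensitive arrays and 635, 413 and 256 in the paclitaxel-resistant arrays and rose by 2.32 ± 0.33 (adjusted p = 0.000596). EPHA2, an ephrin receptor, rose by 0.85 ± 0.15 (adjusted p = 0.00169) and its ligand EFNA1 by 1.67 ± 0.15 (adjusted p = 2.77e-05). EGFR rose by 1.49 ± 0.22 (adjusted p = 0.000697), but its 5 other probe sets were not called and ran from -0.16 to 0.83. The falls in this list, in FGFR1, FGFR2, TYRO3, MERTK and TIE1, counted 2 to 3 with any 1 of sensitive replicates 1 and 3, docetaxel-resistant replicates 1 and 2 and paclitaxel-resistant replicates 2 and 3 left out. Of growth factors and their binding proteins 10 of 41 measured members rose, 5 fell and 26 were not called. IGFBP1 and IGFBP3, which hold insulin-like growth factors, went from 823 to 147 and 819 to 142. FGF13 and PDGFC rose by 1.85 ± 0.17 and 1.28 ± 0.19, and EREG, a ligand of EGFR, by 1.86 ± 0.27 (adjusted p = 2.35e-05, 0.00062 and 0.0007).

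Adhesion-class G protein-coupled receptors changed in both directions. Besides ADGRE1, the adhesion receptors ADGRF5, ADGRG6 and ADGRL2 rose, from means of 119 to 986, 7.51 to 129 and 13.9 to 130.0, and ADGRG1 and ADGRE5 fell, from 179 to 77.03 and 617 to 302. In the list 5 of 39 measured members rose, 8 fell and 26 were not called. GPRC5A, a retinoic acid-induced receptor, fell by 1.16 ± 0.16 (adjusted p = 0.000401). The early genes and feedback inhibitors of the ERK kinases were lower in 9 of 32, with SPRY2 down by 1.72 ± 0.15 (adjusted p = 2.1e-05), the transcription factor JUN by 1.15 ± 0.16 (adjusted p = 0.000413) and the phosphatase DUSP5 by 1.07 ± 0.16 (adjusted p = 0.000653). In the same list 5 rose, or 3 without any 1 of sensitive replicate 1 and paclitaxel-resistant replicates 1 and 2.

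In TGF-beta and BMP signalling 12 of 41 measured members rose, 6 fell and 23 were not called. The receptor TGFBR2 read 1470.2, 615 and 1021 in the sensitive arrays and 477, 369 and 362 in the paclitaxel-resistant arrays. It fell by 1.27 ± 0.19 (adjusted p = 0.000842), the decoy receptor BAMBI from a mean of 124 to 53.2 (adjusted p = 0.000141) and the ligand BMP4 by 1.99 ± 0.15 (adjusted p = 8.71e-06). The signal carrier SMAD2 rose by 1.14 ± 0.17 (adjusted p = 0.000785) with its other probe sets, whereas SMAD4, which rose by 0.99 ± 0.21, had a weaker probe set at -0.10. The target ID3, an inhibitor of differentiation factors, rose by 1.87 ± 0.23 (adjusted p = 0.000202). In the Notch, Wnt and Hedgehog list 5 of 42 rose and 6 fell. HEY1, a Notch target, fell by 2.41 ± 0.17 (adjusted p = 5.15e-06), and the ligand WNT5A and the receptor FZD6 rose by 1.62 ± 0.13 and 1.85 ± 0.31 (adjusted p = 1.3e-05 and 0.00139).

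Some germline and lineage genes were higher and others lower. Of the cancer-testis antigens, normally made in germ cells, 7 of 23 measured members rose, 1 fell and 15 were not called, and 13 were under 50 in both groups. MAGEA6, the strongest, went from 544 to 1892, MAGEB2 from 89.6 to 406 and SSX3 from 9.76 to 109, and MAGEC1 read 0.0100, 1.80 and 2.51 in the sensitive arrays and 112, 114 and 115 in the paclitaxel-resistant arrays. MAGEA and SSX genes are close copies, and without probe sets that can match several transcripts 2 of 16 measured members rose. The fall was that of SPANXB1, and 2 falls were counted without paclitaxel-resistant replicate 1. Of 13 luminal breast markers 5 rose (TFF3, TFF1, FOXA1, SPDEF and AGR2) and none fell. SPDEF, an epithelial transcription factor, went from 144 to 287 and AGR2, a secretory protein, from 239 to 503, while ESR1 (43.9 and 42.2), PGR (7.84 and 9.60) and GATA3 (80.7 and 85.1), the hormone receptors and the factor that define luminal cells, did not pass. MITF, a regulator of pigment cells, rose by 2.17 ± 0.20 (adjusted p = 3.07e-05), with the pigment genes TYR, PMEL and MLANA not called. Of the stem and lineage transcription factors 6 of 39 measured members rose, 5 fell and 28 were not called, with falls in KLF4 (488 to 212), SOX4 (552 to 244) and ZSCAN18 (4338 to 205).

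Of the cell cycle lists, mitosis and the spindle checkpoint had 29.3% called, against 21.6% of all genes. DNA replication and S phase had 23.7% and G1 control and p53 targets 19.2%, both near that share. In DNA replication and S phase 3 of 38 measured members rose, 6 fell and 29 were not called. The falls numbered 1 without sensitive replicate 1, where 5 rises were counted. In mitosis and the spindle checkpoint 7 of 41 measured members rose, 5 fell and 29 were not called. The rises of BUB1B, NDC80, TOP2A, TPX2 and SPAG5 lost their calls with 1 of several arrays left out, and the count of rises was 2 without sensitive replicate 2 or paclitaxel-resistant replicate 2, 3 without paclitaxel-resistant replicate 1 and 4 without sensitive replicate 3. CCNB2, a mitotic cyclin, rose by 0.60 ± 0.14 (adjusted p = 0.00968) and MAD1L1, a checkpoint protein, fell by 0.72 ± 0.15 (adjusted p = 0.00509). The falls numbered 3 without any 1 of sensitive replicate 3, docetaxel-resistant replicate 1 and paclitaxel-resistant replicate 1. CDK4, the kinase of early G1, read 2305, 2201 and 1985 in the sensitive arrays and 1156, 1156 and 1204 in the paclitaxel-resistant arrays. It fell by 0.86 ± 0.13 (adjusted p = 0.00101), as did its partners CCND2 and CCND3 by 1.11 ± 0.16 and 0.98 ± 0.14, and CCND1 (0.32, interval 0.02 to 0.61) did not pass. In the list of G1 control and p53 targets 0 of 26 measured members rose, 5 fell and 21 were not called. CDKN1A stood at -0.31 (interval -0.70 to 0.08) and MKI67 at -0.05 (interval -0.47 to 0.36), neither called.

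DNA repair held MGMT and smaller shifts. In this list 7 of 45 measured members rose, 5 fell and 33 were not called. POLM, a polymerase of end joining, rose from 15.9 to 189, and the mismatch repair genes MSH3 and MSH6 by 0.95 ± 0.15 and 1.48 ± 0.26 (adjusted p = 4.5e-05, 0.00126 and 0.00206). ERCC1 of excision repair fell by 0.68 ± 0.15 (adjusted p = 0.00602). Of the BCL2 family 2 of 17 measured members rose, 5 fell and 10 were not called. The killers BAX and BAK1 fell by 1.18 ± 0.14 and 0.87 ± 0.16 (adjusted p = 0.000206 and 0.00219), BNIP3 of mitochondrial turnover by 1.30 ± 0.18 (adjusted p = 0.000447), and the survival gene BCL2L1 by 0.45 ± 0.13 (adjusted p = 0.0316). The call of BCL2L1 ended with 1 of several arrays left out (adjusted p of up to 0.104), although its 2 other probe sets were also lower. BCL2 (-0.19, interval -0.50 to 0.12) and MCL1 (0.47, interval 0.03 to 0.90) did not pass, and the 4 other, weaker probe sets of MCL1 lay between -0.53 and -0.03, of which 1 was called lower (adjusted p = 0.0278). The 2 rises, PMAIP1 and BNIP3L, numbered 0 without sensitive replicate 2 and 1 with any 1 of 6 other arrays left out. The falls of the family numbered 3 without any 1 of sensitive replicates 1 and 2, docetaxel-resistant replicate 2 and paclitaxel-resistant replicates 2 and 3. Of the death receptors and caspases 2 of 25 measured members rose, 5 fell and 18 were not called. The mediators of caspase activation FADD, HTRA2 and DIABLO fell by 1.07 ± 0.14, 1.04 ± 0.15 and 0.68 ± 0.13 (adjusted p = 0.000372, 0.000694 and 0.00389). The risers were CYCS (0.91), whose call ended with 1 of several arrays left out (adjusted p of up to 0.129), and CASP4 (0.78). The call of CASP4 ended without probe sets that can match several transcripts (adjusted p = 0.786).

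Of the drug transporters 19.0% were called, near the 21.6% of all genes, and 13 of 21 lay under 50 in both groups. Tubulins were called less often. Of 21 transporters 2 rose (ABCB1 and ABCA2) and 2 fell (ABCC10 and SLCO4A1), and each count was 1 without paclitaxel-resistant replicate 1 or 3. Without paclitaxel-resistant replicate 2 there was 1 rise, and without sensitive replicate 2 or 3 there was 1 fall. ABCB1, which encodes P-glycoprotein, read 6.24, 5.43 and 10.4 in the sensitive arrays and 87.4, 53.1 and 48.4 in the paclitaxel-resistant arrays. It rose by 1.72 ± 0.19 (adjusted p = 0.000116) to a level above the median of each array. ABCC1 (-0.24, interval -0.57 to 0.08) and ABCG2 (-0.06, interval -0.41 to 0.30), which encode other efflux pumps, did not pass. The anion transporter SLCO4A1 fell from a mean of 2097 to 103 (by 4.17 ± 0.25, adjusted p = 1.16e-06). Of 16 tubulins 1 was called (6.25%), TUBA4A, which fell by 1.19 ± 0.15 (adjusted p = 0.000215). The beta-tubulins stood high in both groups, TUBB at 6576 and 5545 and TUBB3 at 2761 and 2931, and neither TUBB3 (0.17, interval -0.11 to 0.44) nor TUBB2A (-0.12, interval -0.41 to 0.18) passed. Of the microtubule-binding proteins and motors 12 of 42 measured members rose, 1 fell and 29 were not called. CKAP5, which speeds microtubule growth, rose by 1.26 ± 0.19 (adjusted p = 0.00088), MAP1B, a stabilizer of axons, by 1.30 ± 0.26 (adjusted p = 0.00411) and the plus-end protein CLIP2 by 0.82 ± 0.16 (adjusted p = 0.00331). TBCC, a chaperone that folds tubulin, read 273, 248 and 313 in the sensitive arrays and 107, 104 and 101 in the paclitaxel-resistant arrays and fell by 1.32 ± 0.15 (adjusted p = 9.83e-05). STMN1 (-0.23, interval -0.51 to 0.05) did not pass, and MAPT, which encodes tau, rose by 0.53 ± 0.14 with a call that ended without any 1 of sensitive replicate 2 and paclitaxel-resistant replicates 2 and 3 (adjusted p of up to 0.0642). The 12 rises numbered 5 without sensitive replicate 2, 7 without paclitaxel-resistant replicate 1 and 6 without paclitaxel-resistant replicate 2 or 3, and 2 falls were counted without paclitaxel-resistant replicate 1.

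Gene families were also taken from the symbols alone, by the letters before the first digit. Of 221 families with at least 8 genes, 12 had at least 2 times the share of calls of all genes and 30 had no call. Among the 12, SMAD genes rose in 4 of 9, and 2 of these rises depended on the probe set. The call of SMAD3 ended with the mean of its probe sets (adjusted p = 0.12). SMAD4 turned to -0.10 without probe sets that can match several transcripts. The chaperonin subunits CCT rose in 5 of 9, a count of 1 without sensitive replicate 2, 2 without any 1 of sensitive replicate 3 and paclitaxel-resistant replicates 1 and 2, and 3 without paclitaxel-resistant replicate 3. The other probe set of CCT8, at a low level, stood at -0.04. The HSP70 family HSPA rose in 5 of 10, or 3 without any 1 of sensitive replicate 3, docetaxel-resistant replicate 2 and paclitaxel-resistant replicates 1 and 3. The nuclear pore genes NUP rose in 9 of 21, or 4 without sensitive replicate 2 or 3 and 5 without paclitaxel-resistant replicate 1, and the 1 NUP fall was lost with any 1 of 7 arrays left out. NUP160 rose by 1.83 ± 0.23 and NUP50 by 1.31 ± 0.19 (adjusted p = 0.000255 and 0.000619), each with 1 other probe set that did not rise. CYB5A, a heme protein that carries electrons to lipid enzymes, rose by 1.74 ± 0.16 (adjusted p = 2.2e-05). The glycosyltransferases GALNT, which start mucin-type sugar chains, split, with GALNT10 up by 1.08 ± 0.16 and GALNT6 down by 1.92 ± 0.12 (adjusted p = 0.000692 and 2.21e-06). Among tetraspanins 5 of 15 fell and 2 rose, or 1 with any 1 of 7 arrays left out, and among the TIMM genes of mitochondrial import 4 of 11 fell and 1 rose. The WD-repeat genes, a family by shape and not by function, had 7 rises and 9 falls in 32.

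Calls were spread unevenly over the chromosomes. On chromosome 18, 28.7% of 174 measured genes were higher and 2.30% lower. On chromosome 22 these were 27.6% and 5.45% of 312, and on chromosome 21 24.1% and 5.11% of 137. Chromosome 10 ran the other way, with 3.33% of 451 genes higher and 24.8% lower. The next highest shares of lower genes were on chromosome 14, with 9.19% higher and 19.9% lower of 381, and chromosome 12, with 5.34% and 16.6% of 674. The median log2 difference was 0.18 on chromosome 18 and -0.17 on chromosome 10. The risers of chromosome 18 included NARS1, CYB5A, the autophagy kinase PIK3C3 (1.90 ± 0.35, adjusted p = 0.0025), the endosomal RAB31 (1.54 ± 0.19, adjusted p = 0.000192) and the zinc transporter SLC39A6 (1.72 ± 0.28, adjusted p = 0.00137). MGMT, ADIRF and PLAU lie on chromosome 10. The copy number of these chromosomes was not measured.

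**Figure D5:**
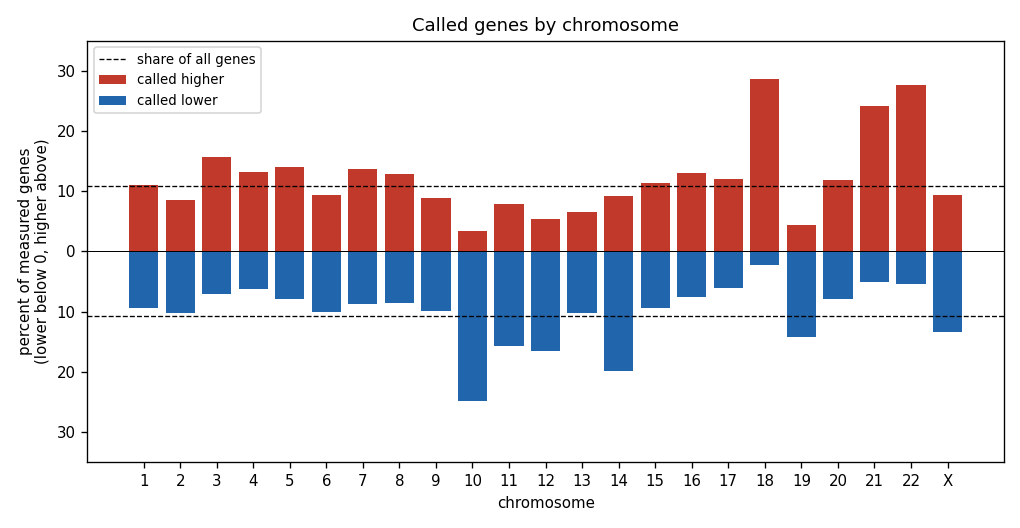
Percent of the measured genes of each chromosome called higher (red, upward) and lower (blue, downward) in the paclitaxel-resistant line, with dashed lines at the shares over all genes (10.9% and 10.7%). Chromosomes 18, 21 and 22 stand out upward and chromosome 10 downward.

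Neighbouring genes were called together in 24 runs of at least 4. The longest were RBFOX2, APOL3, APOL2, APOL1, MYH9 and TXN2 on chromosome 22, which rose (median 1.25), and ARFIP2, TIMM10B, RRP8, ILK, TAF10 and TPP1 on chromosome 11, which fell (median -0.80). APOL1, the apolipoprotein that lyses trypanosomes, read 16.9, 11.1 and 24.4 in the sensitive arrays and 62.01, 72.5 and 65.4 in the paclitaxel-resistant arrays, and rose by 1.30 ± 0.16 (adjusted p = 0.000249). On chromosome 21 the trefoil genes TFF3, TFF2 and TFF1 lie beside ABCG1, and all 4 rose, TFF1 from 22.7 to 215 and TFF2 from 13.2 to 101; the call of ABCG1 ended in 7 of the 9 fits that left out an array (adjusted p of up to 0.154). Without probe sets that can match several transcripts RBFOX2 turned to -0.16, and RRP8 and TPP1 were not called. MGMT fell with its neighbours GLRX3, PPP2R2D and BNIP3, of which GLRX3 lost its call without paclitaxel-resistant replicate 2. GLRX3 also lost it without normalization between arrays. Without probe sets that can match several transcripts GLRX3 stood at -0.08 and was not called (adjusted p of up to 0.819). On chromosome 1 CCN1 rose with BCL10, DDAH1 and ZNHIT6. On the X chromosome 3 runs of 4 were lower, 1 of them with TIMP1 and another with WDR45, an autophagy protein that fell by 1.70 ± 0.18 (adjusted p = 8.28e-05).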

How the data were processed

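RNA of 9 MDA-MB-231 cultures had been hybridised to 1-colour Affymetrix arrays. The deposited values are linear intensities per probe set, which the authors made with PLIER in Affymetrix Expression Console 1.1.2, per the submitters' processing notes. The background and normalization settings of that step were not given in the sources used here. Of 22283 probe sets 68 controls were left out, and of the 22215 others 19065 named 1 gene, 1043 several and 2107 none, of which those with several or none were not named. Symbols were updated through RefSeq (19053 probe sets matched). Array medians differed by 0.27 on the log2 scale, so log2(intensity + 16) was quantile-normalized over the 22215 probe sets. Each gene was read by its brightest probe set (mean of the 9 arrays), giving 11963 genes (4310 had more than 1).

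Differences were tested with limma 3.58.1 in R 4.3.3 (lmFit and eBayes, 3 group means, two-sided), and p-values were adjusted by Benjamini-Hochberg over all genes and called below 0.05. Intervals are 95% intervals of the log2 difference, not adjusted over genes, so one can leave out 0 for a gene that was not called. Intensities per array and their means are as deposited, before the quantile step. An exact permutation test of 3 against 3 arrays cannot go below p = 0.10 and was not used. On simulated data of 11963 genes for this comparison, 100% of changes of 2, 58.2% of 1 and 11.9% of 0.5 on the log2 scale were recovered, and 8 of 121 calls were on unchanged genes. The simulation changed 66, 67 and 67 genes by these sizes, all drawn from above the median level, so recovery at lower levels was not simulated. It changed far fewer genes than were called in the data, and the adjusted p depends on that number. Lists are described by counts and medians, with no set test. Genes were named from the largest called log2 and intensity differences without overlap, the lost and gained genes, the called members of each list and family with the smallest adjusted p, and a fixed group of taxane resistance genes. Further list members, markers and neighbours were chosen after their values were seen. The members and lists were chosen with earlier results of these data known. Alternatives were other pseudocounts, normalizations, probe set rules, filters, spread estimates and samples, each array left out, and the replicate number as a block. After the data were seen, a fit without the arrays whose medians were lowest and highest, and one with the main axis of variation inside groups as covariate, were added.

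The replicate numbers were not taken to pair the samples. Deviations from the group means of same-numbered sensitive and paclitaxel-resistant arrays correlated at 0.336, 0.225 and 0.00248. Those of differently numbered arrays of these groups ran from -0.391 to 0.242. Same-numbered sensitive and docetaxel-resistant arrays gave -0.451, 0.18 and 0.00992, and the 2 resistant lines -0.395, 0.0826 and -0.315. Deviations within a group are tied to each other, so these few values cannot settle whether the numbers pair the samples.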

Additional observations from a re-analysis of the deposited data

Results flagged for a closer look

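The paclitaxel-resistant and docetaxel-resistant lines were compared in the same limma fit, adjusted over all genes, and 238 of 11963 (1.99%) differed between them at an adjusted p below 0.05. Looked up for this were only genes named by the fixed choices, not those added after their values were seen, and only where called against sensitive cells. Of these 34 differed, and their log2 differences, paclitaxel-resistant minus docetaxel-resistant, follow. Other genes named in the text were not looked up, so their absence below says nothing. The paclitaxel-resistant arrays entered both this contrast and the calls against sensitive cells that chose the genes, so the 2 are tied. The 34 are given without the number looked up and cannot be read against the 1.99% of all genes. ABCB1, the drug pump, was lower in the paclitaxel-resistant line by the widest margin (-3.69). Also lower were the carnitine transferase CROT (-1.93), the WD-repeat gene WDR3 (-1.77), the protease CTSC (-1.22), the cross-linking enzyme TGM2 (-1.19), the cancer-testis gene MAGEC1 (-1.11), the matrix protein SPARC (-1.09), the keratin KRT15 (-0.87), the channel KCNK1 (-0.79), PDCD2 (-0.76), SMS of polyamine synthesis (-0.75), the peroxidase PRDX4 (-0.73), the receptor GPRC5A (-0.72), the chaperone HSPA2 (-0.69), TNS1 of focal adhesions (-0.68) and the tRNA synthetase WARS1 (-0.64).

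Higher than in the docetaxel-resistant line were the cancer-testis genes SSX1 (2.14) and MAGEB2 (0.78) and the trefoil genes TFF1 (1.95), TFF2 (1.76) and TFF3 (1.64). S100A4 (1.77) and the lipase inhibitor ANGPTL4 (1.60) were higher too, as were the collagen COL6A2 (1.34), the protease inhibitors TIMP3 (1.15) and SERPINA1 (1.11) and the lineage factor NKX2-1 (1.15). The same held for the aldolase ALDOC (0.98), the Notch target HES1 (0.84), the lysosomal GAA (0.75), the secreted Wnt inhibitor DKK3 (0.74), the electron donor POR (0.70), the actin-binding TAGLN2 (0.69) and the sterol regulator SREBF2 (0.61).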

How the results depend on the processing

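The count of 2586 calls kept within 1.5 times its size under all alternatives run but one: with probe sets named _x_at or _s_at dropped, which leaves fewer genes to test, it was 1494, with 731 higher and 763 lower and 284 and 197 at least 2-fold. A pseudocount of 64 left 215 genes at least 2-fold higher and 146 lower, and a pseudocount of 1 gave 489 at least 2-fold lower. Limits of 32 and 400 in place of 50 and 200 left 6 lost and 0 gained genes, and limits of 100 and 200 gave 36 and 17. Leaving out each array in turn gave 1907 to 2713 calls, 913 to 1409 higher and 978 to 1304 lower, and 393 to 591 higher and 294 to 339 lower at least 2-fold. With the replicate number as a block 2395 genes were called, 1225 higher and 1170 lower. Whether the numbers pair the samples is not settled. The first within-group axis as a covariate gave 3447 calls, and leaving out the arrays of lowest and highest median 2324, both chosen after seeing the data. Higher calls made up 50.3% of all, and 44.5% to 53.1% under the alternatives. Of 452 named genes 416 were called, 314 of them under every alternative that measured them, and 13 changed sign: RPL38 (-0.22) with the mean of the probe sets, and, without _x_at and _s_at probe sets, RPS6 (-0.035), TACC1 (-0.049), ASAH1 (-0.29), TPM1 (-0.26), MYL6 (0.0605), EGFR (-0.16), HES1 (-0.29), MBD4 (-0.11), CCT8 (-0.037), HLA-DRB6 (0.0034), SMAD4 (-0.10) and RBFOX2 (-0.16), where another probe set of the gene took its place. For 5307 genes under 50 in both groups the low signal limits what can be seen.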

Other observations

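Where a called gene had further probe sets, these followed it more often at high signal. For genes called higher, 425 of 1072 other probe sets (39.6%) were called higher and 8 lower, and among those at 200 or more 161 of 207 (77.8%) and 0. For genes called lower, 364 of 722 (50.4%) were called lower and 1 higher, and at 200 or more 140 of 175 (80.0%) and 1. Of genes read by a probe set ending in _x_at, 13.2% were called higher and 7.5% lower, against 12.7% and 13.2% for _s_at and 9.52% and 9.73% for the plain ending.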
